A study of Drosophila melanogaster with 4 samples.

Results

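The reference sequence of chromosome 4 of Drosophila melanogaster was read as 1352 consecutive windows of 1 kb, from its first base to its last. These are 1352 of the 139719 such windows on the 13 sequences that hold clusters. Shares and ends of the chromosome below are those of this sequence, and any part of the chromosome outside it was not measured. The windows were set by position alone. H3K9me3, histone H3 trimethylated at lysine 9, was mapped in wild-type Oregon-R embryos, staged at 14 to 16 h, by chromatin immunoprecipitation and sequencing (ChIP-seq) after crosslinking in 1.8% formaldehyde. There were 2 ChIP libraries (replicates 1 and 2), each with an input library, and no mutant, treated or second-stage group. Each ChIP library came with a list of clusters, the authors' regions of significant enrichment, and a further list stands for the set of replicates. Whole embryos were used, so a cluster does not tell how many cells or which tissues carried the mark. All positions are on FlyBase release 5, and the value of a window is the percentage of its bases that lie in clusters.

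Chromosome 4, the dot chromosome, is the smallest autosome of the fly. It is known for heterochromatin that is laced with active genes. H3K9 methylation recruits the protein HP1a there, and over much of the chromosome it depends on the methyltransferase Eggless, whereas Su(var)3-9 acts mainly in the heterochromatin around the centromeres. The protein POF binds active genes of this chromosome. The reference sequence runs from the centromere-facing end at low coordinates to the telomeric end at high coordinates. Genes could not be set against the windows, because the available gene table belongs to release 6.

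A window was mostly either covered throughout or bare. Much of this follows from the calls, because a base either lies in a cluster or does not. The shortest cluster, 1317 bp in replicate 1 and 1301 bp in replicate 2, is longer than a window. Only windows that hold an edge of a cluster can therefore be partly covered. In replicate 1, 773 windows were covered to 100%, 408 were uncovered and 171 lay in between. In replicate 2 the numbers were 770, 400 and 182. Both libraries covered the same 728 windows throughout, 53.8% of the chromosome, against 11.6% of the windows over all 13 sequences. Both left the same 357 windows bare, 26.4% of the chromosome against 81.6% over all sequences. The series-wide list had 865 full, 291 bare and 196 partly covered windows. It thus held more full and fewer bare windows than either library. In all, replicate 1 covered 64.0% of the bases, replicate 2 covered 64.7% and the series-wide list 72.2%.

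**Figure D1:**
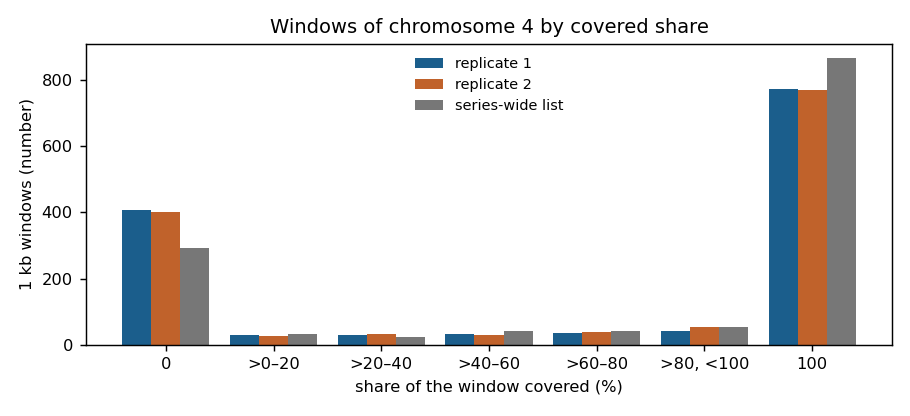
Number of 1 kb windows of chromosome 4 (vertical axis) by the share of the window that lies in clusters (horizontal axis, %), for replicate 1, replicate 2 and the series-wide list. The classes 0 and 100% hold most windows in each list, with 171, 182 and 196 windows in between. Only windows that hold an edge of a cluster can lie in between.

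A window is called marked where its covered share, averaged over the 2 libraries, is at least 50%. By this rule 877 windows of chromosome 4 were marked, 64.9%, against 15.3% of the windows over all 13 sequences. The share was 64.3% in replicate 1 and 64.9% in replicate 2 when each was taken alone. On the 5 large chromosome arms it was 6.09% and 5.83%. The libraries gave the same verdict for most windows. Both reached 50% in 822 windows and both stayed under it in 426. Replicate 1 alone reached it in 48 windows and replicate 2 alone in 56, together 7.69% of chromosome 4 against 2.34% over all sequences. These shares are not alike in base, because 81.6% of the windows over all sequences were bare in both libraries. Windows at 50% in 1 library alone numbered 3276 beside 21322 marked ones over all sequences, and 104 beside 877 on chromosome 4. These 104 windows fell into 71 separate runs, of which 46 were a single window and the longest was 5 windows. Of the 104 windows, 102 were at least 50% covered in the series-wide list. Shares were identical in 1085 windows, all of them full in both libraries or bare in both, and differed by over 50 points in 81. Spearman's rho of the shares was 0.902 over the 1352 windows, which are neighbours on 1 chromosome and not independent.

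Marked windows came in 80 runs, called domains here, and the windows between and beside them in 80 gaps. Domains and gaps take turns by construction. Their number also depends on the window: it was 94 in windows of 500 bp, 54 in windows of 2 kb, and 62 with clusters within 1 kb joined. The domains averaged 11.0 windows and the gaps 5.94, with medians of 5.50 and 3.00. Replicate 1 taken alone had 72 domains and replicate 2 had 74. With only clusters at or above the median score of their list, 37 domains were left.

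Most of the mark lay in few long domains. The 18 domains of 20 windows or more held 63.9% of the marked windows, and the 12 of 10 to 19 windows a further 19.4%. At the other end of the scale, 17 domains were 1 window long and 22 were 2 to 4 windows long, and these 39 held 1.94% and 6.16% of the marked windows. The 41 domains of 5 windows or more were found in both libraries, at no less than 81.7% covered in replicate 1 and 86.1% in replicate 2.

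Of the 5 longest domains, 4 lay before position 503000, and the longest lay far from them. This split depends on a tie in length for the fifth place, described below. The longest, at 1243001 to 1297000, spanned 54 windows and was covered to 98.9% in replicate 1 and 98.6% in replicate 2. It lies close to the telomeric end. The next, at 455001 to 503000, spanned 48 windows, at 99.9% and 98.0%. A pair of 37 windows each lay at 41001 to 78000, covered to 99.4% and 95.7%, and at 359001 to 396000, covered to 98.9% and 99.6%. The fifth, at 134001 to 168000, spanned 34 windows, at 97.4% and 98.2%. A domain of the same length lay at 1186001 to 1220000, near the longest one, at 99.2% and 95.0%. All of these were thus nearly solid in both libraries, and the differences between libraries were at most a few points.

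The single-window domains were a different case. Of the 80 domains, 62 were at least 50% covered in each library, while 9 were bare in replicate 1 and 7 were bare in replicate 2. Each of those 16 was 1 window long, with a share of 100% in one library and 0% in the other, which gives exactly the 50% that the rule asks for. An example is the window at 288001 to 289000, bare in replicate 1 and full in replicate 2, and another is the window at 863001 to 864000, full in replicate 1 and bare in replicate 2. All 16 were at least 50% covered in the series-wide list. Where each library had to reach 50%, 71 domains and 60.8% marked windows remained.

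**Figure D2:**
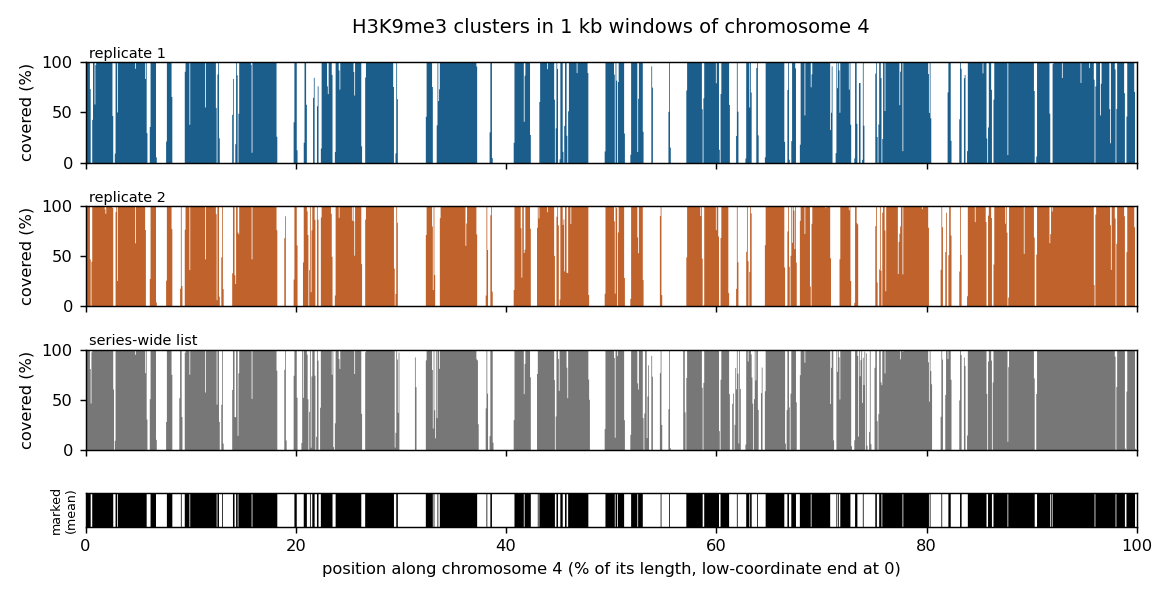
Covered share (vertical axes, %) of each 1 kb window along chromosome 4 (horizontal axis, % of its length from the low-coordinate end) in replicate 1, replicate 2 and the series-wide list; the black strip shows the windows marked by the mean of both libraries. Long domains and long gaps lie at the same places in both libraries, while 16 single-window domains are full in one library and bare in the other, and the last long gap ends well before the right-hand end.

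Gaps were also of mixed size. Of the 80 gaps, 51 were 1 to 4 windows long, and the 17 of at least 10 windows held 60.0% of all 475 gap windows. The longest lay at 401001 to 437000, 36 windows with no covered base in either library and 8.08% covered in the series-wide list. The second, at 522001 to 551000, spanned 29 windows, at 0.872% in replicate 1 and 1.10% in replicate 2. These gaps lie on either side of the domain at 455001 to 503000 described above, but shorter domains and gaps separate them from it. The third, at 716001 to 739000, had 23 windows, covered to 8.80% and 5.08%, and to 28.9% in the series-wide list. Gaps of 22 windows each lay at 246001 to 268000, covered to 1.85% in replicate 1 and 8.43% in replicate 2, and at 646001 to 668000, covered to 0.527% and 1.13%. Of the 17 long gaps, 12 were under 5% covered in replicate 1 and 13 in replicate 2, against 2 in the series-wide list. Unsequenced bases were not measured, and a stretch of them would also appear as a gap.

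In bins of 50 kb, well covered and poorly covered stretches alternated most sharply in the low-coordinate part of the chromosome. The bin at 200001 to 250000 was covered to 89.6% ± 1.26, the next to 28.7% ± 14.8, and those at 300001 to 350000 and 350001 to 400000 to 84.3% ± 1.01 and 84.7% ± 1.32 (SD, n = 2 each). Then followed 19.7% ± 2.80 at 400001 to 450000, 92.0% ± 4.82 at 450001 to 500000 and 11.8% ± 1.61 at 500001 to 550000, while the bin at 550001 to 600000 was covered to 72.6% in replicate 1 and 77.5% in replicate 2. Neighbouring bins differed by over 50 points in 6 of 26 cases. The spread between libraries within a bin had a median SD of 2.25 points, and the bin means themselves had an SD of 23.1 points over the 27 whole bins. From 650001 to 1150000 the bins were intermediate, between 33.0% ± 0.315 at 700001 to 750000 and 75.1% ± 0.928 at 900001 to 950000. The 4 whole bins from 1150001 to 1350000 were covered to 86.6% ± 1.73, 89.3% ± 3.93, 96.3% ± 0.0665 and 86.3% ± 2.25 (SD, n = 2 each).

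**Figure D3:**
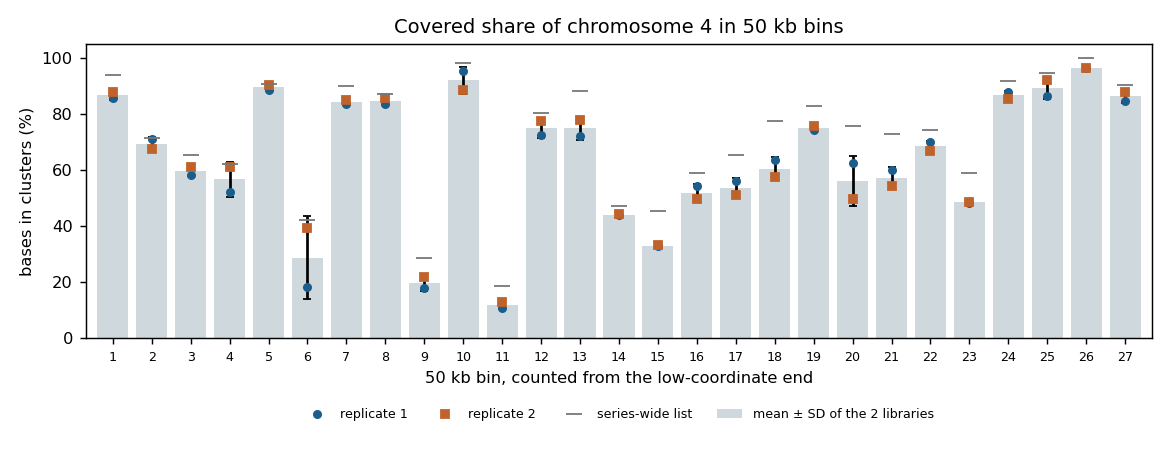
Covered share (vertical axis, %) of the 27 whole 50 kb bins of chromosome 4, numbered from the low-coordinate end; bars are means of both libraries with their SD, symbols are the single lists. Bins 6, 9 and 11 lie under 30% between bins that are far better covered, and the last 4 bins all exceed 80%.

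How alike windows were at a distance describes the same covered shares in another way and is no separate observation. Pearson's r between the shares of windows 1 kb apart was 0.83 in each library. It was 0.30 in replicate 1 and 0.29 in replicate 2 at 10 kb, and 0.09 and 0.11 at 20 kb. At 50 kb it was negative, at -0.25 and -0.22, and at 100 kb it was 0.09 and 0.11. Neighbouring windows share clusters, and the pairs come from 1 chromosome, so these values are a description only.

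The libraries differed most in the bin at 250001 to 300000, with 18.3% in replicate 1 and 39.2% in replicate 2. The domains there were short and the scores were low. The domain at 268001 to 271000 was covered to 100% in both libraries. That at 280001 to 284000 was covered to 69.6% in replicate 1 and 100% in replicate 2, and that at 291001 to 294000 to 49.9% and 100%. The authors' score has no stated scale. It averaged 1.00 in replicate 1 and 0.93 in replicate 2 over the covered bases of this bin, the lowest of all bins in each library. In the bins on either side it was 2.69 and 2.90, and 1.95 and 1.97.

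Both ends of the reference sequence were covered more widely than the part between them. The first 100 windows, next to the centromere-facing end, were covered to 78.3% in replicate 1 and 77.7% in replicate 2. The last 100 windows, at the telomeric end, were covered to 88.6% and 90.2%. The 1152 windows in between were covered to 60.6% and 61.3%. The low-coordinate end thus exceeded the interior by 17.0 points ± 0.904 and the high-coordinate end by 28.4 points ± 0.588 (SD, n = 2). These differences exceed their spread between libraries, but coverage also varied along the chromosome, with an SD of 23.1 points over 50 kb bins. Interior bins such as those at 300001 to 400000 (84.3% and 84.7%) were covered more widely than the low-coordinate end as a whole. The mean of the high-coordinate end (89.4%) was reached by the interior bins at 200001 to 250000 (89.6%) and 450001 to 500000 (92.0%), within the spread between libraries. The excess of the low-coordinate end was 27.7 points with only clusters at or above the median score of their list and 9.65 points with ends of 200 windows. With 2 libraries the smallest two-sided p of an exact permutation of signs is 0.5, so no test was made.

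The high-coordinate end exceeded the low one by 11.4 points ± 1.49 (SD, n = 2), but which end was higher depended on the stretch counted. In the outermost 50 windows the high-coordinate end was covered to 82.5% ± 2.25 and the low-coordinate end to 86.8% ± 1.71 (SD, n = 2 each), a difference of -4.29 points. With 200 windows the difference was 20.6 points. With only clusters at or above the median score of their list it was -3.75 points.

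Well covered sequence reached further in from the high-coordinate end than from the low one. Every gap of at least 10 windows lay between 90001 and 1124000. Beyond 1134000 no gap exceeded 3 windows, and 201 of the last 218 windows were marked. On the low-coordinate side, long gaps began within the first 100 windows. Of those 100 windows 79 were marked, and the gap that closes them starts at 90001 and runs on to 104000.

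The outermost bases of the ends differed in their cover. At the low-coordinate end the first cluster began at base 6 in replicate 1 and base 5 in replicate 2, and the first domain, at 1 to 6000, was covered to 95.5% and 91.1%. At the high-coordinate end the last cluster stopped 3149 bp before the end of the sequence in replicate 1 and 3066 bp before it in replicate 2. The last 3 windows therefore held no covered base in either library and 0.630% in the series-wide list. Unsequenced bases, or bases to which no reads were kept, would also appear bare, and neither was measured. The last domain, at 1338001 to 1349000, was covered to 92.5% and 94.0%. Leaving out the last gap, the high-coordinate end was covered to 92.0% ± 1.12 (SD, n = 2).

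Some of the highest scores on the chromosome also lay at its ends. In replicate 1 the 3 highest-scoring clusters were at 6 to 5736 (score 4.02), 8570 to 11583 (3.98) and 1325462 to 1335695 (3.42). The clusters of replicate 2 that overlap them had scores of 3.82, 4.03 and 3.77. In replicate 2 the cluster at 7552 to 24969 ranked second (4.03) and that at 5 to 5472 ranked next (3.82), again at the low-coordinate end. Of the 10 highest-scoring clusters, 3 of replicate 1 and 2 of replicate 2 lay in the first 100 windows and 2 of each library in the last 100. The other 5 of replicate 1 and 6 of replicate 2 lay in the interior. The first 100 windows held 8 of 95 clusters in replicate 1 and 7 of 104 in replicate 2, and the last 100 held 8 and 5.

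The highest score of replicate 2, 4.48, was among those in the interior. It belonged to a cluster of 1500 bp at 613371 to 614870, in the middle of the chromosome, which no cluster of replicate 1 overlapped. It lies in the gap at 613001 to 616000, covered to 16.1% in replicate 1 and 67.9% in replicate 2. Series-wide, the same bases belonged to a longer cluster, 608407 to 618824, with a score of 1.29. Scores of the same domain were otherwise close in rank in both libraries, with a Spearman's rho of 0.969 over the 64 domains that had covered bases in each.

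Median scores of domains rose with length up to 10 to 19 windows and were no higher in longer domains. Median scores over the covered bases were 0.88 in replicate 1 and 0.83 in replicate 2 for domains of 1 window, 1.00 and 0.97 for 2 to 4 windows, 1.85 and 2.06 for 5 to 9, 2.54 and 2.66 for 10 to 19, and 2.48 and 2.60 for 20 or more. Domains that were bare in a library have no score there and were left out. Of the 17 domains of 1 window these were 9 in replicate 1 and 7 others in replicate 2, so the medians of that class rest largely on different domains. Spearman's rho of length and score was 0.815 over 71 domains in replicate 1 and 0.812 over 73 in replicate 2. The domains are not independent and how the score depends on cluster length is not stated, so this is a description. The first domain stood out by its score, 4.02 in replicate 1 and 3.82 in replicate 2 at a length of only 6 windows.

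**Figure D4:**
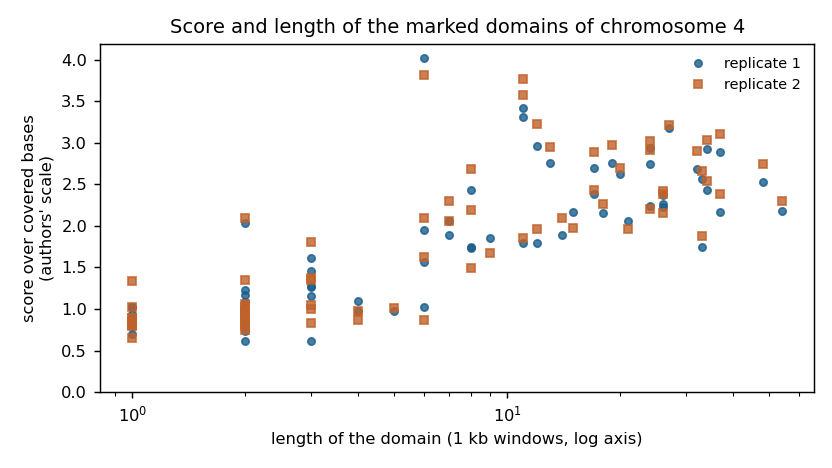
Authors' score over the covered bases (vertical axis, scale not stated) against the length in 1 kb windows (horizontal log axis) of each marked domain, for replicate 1 (71 domains) and replicate 2 (73 domains). Domains of 1 window that have covered bases in the library have median scores of 0.88 and 0.83, those of 20 or more 2.48 and 2.60. The highest pair at 6 windows is the first domain of the chromosome.

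Edges of clusters could be compared where a cluster overlapped a single one of the other library. This held for 57 of the 95 clusters of replicate 1 and 57 of the 104 of replicate 2, and the others were split, merged or absent in the other library. The 114 edges of these pairs lay a median of 143 bp apart, and 65 of them (57.0%) were at most 200 bp apart. Edges differed by over 1 kb in 9 cases, by at most 2111 bp. Stretches covered in replicate 1 alone made up 3.40% of the chromosome in 98 pieces and stretches in replicate 2 alone 4.08% in 101 pieces, with median lengths of 154 and 258 bp. The longest piece in replicate 1 alone ran over 2222 bp, at 862055 to 864276. Pieces of 2182 bp at 966741 to 968922 and of 1993 bp at 451625 to 453617 came next. In replicate 2 alone a piece of 2596 bp at 1240278 to 1242873 was the longest, ahead of 2160 bp at 1099633 to 1101792 and 2140 bp at 580215 to 582354. All 6 were at least 91.9% covered in the series-wide list.

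The series-wide list added to the marked windows and removed none. In it 109 further windows reached 50%, and 64 of these were next to a domain of the libraries. Of the 109, 40 were bare in both libraries. It covered 24 of the 80 gaps to at least 50%. Single-window gaps had a median share of 71.2% in the series-wide list, against 4.10% in replicate 1 and 21.2% in replicate 2, and gaps of 20 windows or more 9.74% against 0.805% and 1.11%. Among stretches it covers where neither library does, the longest measured 2493 bp at 718632 to 721124. A stretch of 2373 bp at 996102 to 998474 and one of 2371 bp at 768010 to 770380 followed. The shortest cluster on chromosome 4 had 1317 bp in replicate 1, 1301 bp in replicate 2 and 1001 bp in the series-wide list. How the replicates were combined for that list is not stated, and it is no independent sample.

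Set against 2 assembled heterochromatic scaffolds of chromosome 3, chromosome 4 was marked less widely, with more long gaps per Mb and shorter domains. Marked windows made up 64.3% of chromosome 4 in replicate 1 and 64.9% in replicate 2, against 82.3% and 79.7% of 3LHet and 75.3% and 73.2% of 3RHet. A lower marked share goes with more or longer gaps, and its part in the values below was not tested. Gaps of at least 10 kb numbered 13.3 per Mb in replicate 1 and 12.6 in replicate 2 on chromosome 4, against 3.52 and 4.70 on 3LHet and 5.56 and 5.56 on 3RHet. Domains averaged 12.1 and 11.9 kb on chromosome 4, against 19.7 and 17.9 kb on 3LHet and 22.1 and 18.1 kb on 3RHet. The median gap was 3.00 kb on all 3 sequences in both libraries. The longest gap, 37 and 36 kb on chromosome 4, was shorter than the 47 and 47 kb of 3LHet and the 81 and 82 kb of 3RHet. Unsequenced bases were not measured on the scaffolds either. A stretch of them would appear as a gap and would lower the marked share. The scaffold 2LHet, of 0.369 Mb, was closer to chromosome 4, with marked shares of 67.8% and 65.6% and domains averaging 14.7 and 13.4 kb. It held only 2 gaps of at least 10 kb in each library, or 5.42 per Mb. Each sequence is a single item, so the differences were set only against the spread between libraries and not tested.

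**Figure D5:**
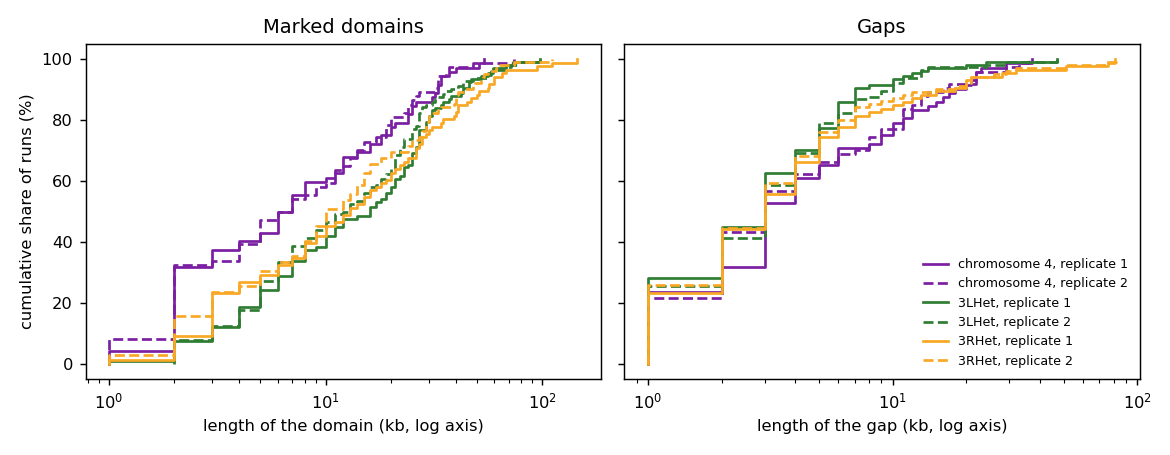
Cumulative share of runs (vertical axis, %) by length (horizontal log axes, kb) for marked domains (left) and gaps (right) on chromosome 4, 3LHet and 3RHet, with a line for each library. Domain lengths of chromosome 4 lie mostly to the left of both scaffolds, while the 3 sequences share a median gap of 3.00 kb.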

How the data were processed

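The submitters' processing notes name Bowtie 0.12.7 as aligner, and the genome build is FlyBase release 5, per the file headers. Each cluster as deposited has 2 positions and a score. Neither the scale of the score nor the caller, its threshold and the read filters are stated in the labels or headers. No counts came with the lists, so depth is unknown. The 2 input libraries were not analysed here. The labels do not say whether the ChIP libraries came from separate embryo collections, so SDs over n = 2 may be technical.

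Shares per 1 kb window (the last has 857 bp), runs, 50 kb bins and ends of 100 windows were computed with numpy 2.4.6 and scipy 1.17.1 under Python 3.11.15, and figures were drawn with matplotlib 3.10.9. The window functions were tested on simulated data. A score of a domain, gap or bin is the mean over its covered bases. One sequence (Uextra) of the 14 in the headers holds no cluster and was left out.

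Windows, rules and alternatives were chosen with earlier results of these data known. The regions named by rule are the 5 longest domains and gaps, the first and last of each, the 3 highest-scoring clusters per library, and the 3 longest stretches in 1 library alone and in the series-wide list alone. A domain tied with the fifth longest is named as well. Other regions named (50 kb bins, the domains between 250001 and 300000, and 2 single windows) were chosen after their values were seen. Alternatives were a higher score limit, joining within 1 kb, other windows, thresholds and ends, the series-wide list and either library by itself.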

Additional observations from a re-analysis of the deposited data

How the results depend on the processing

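Of 59 alternatives, 35 kept the value within the spread between libraries (counts within 1.5 times), 22 moved it further and 2 reversed it. Either library by itself lies within that spread of the mean of both. It was therefore bound to keep the covered share and the end differences. The limit for counts is wide, as 54 domains in windows of 2 kb count as kept beside 80. The tally is thus no measure of robustness. Leaving out either library gave covered shares of 64.0 to 64.7%, marked shares of 64.3 to 64.9%, 72 to 74 domains, an excess over the interior of 16.4 to 17.6 points at the low-coordinate end and of 28.0 to 28.8 points at the high-coordinate end. With only clusters at or above the median score of their list, the covered share was 48.4%, the marked share 52.2% and the number of domains 37, with excesses of 27.7 points at the low-coordinate and 24.0 points at the high-coordinate end; a score limit can only lower the shares. Joining clusters within 1 kb gave 65.4% covered and 66.6% marked, which can only rise. The series-wide list gave 72.2% and 72.9%, with excesses, in the same order, of 13.1 and 23.9 points. Marked shares were 69.6% with a threshold of 25%, 59.7% with 75%, 65.8% in windows of 500 bp, 64.1% in windows of 2 kb and, by a rule added after the data were seen, 60.8% where each library had to reach 50%. The excesses were 24.1 and 19.8 points with ends of 50 windows, and 9.65 and 30.2 points with 200. The difference of the high-coordinate from the low-coordinate end, whose alternatives were also added later, reversed to -3.75 points with the score limit and to -4.29 points with ends of 50 windows. Gaps of at least 10 kb numbered 12 to 19 under every alternative, added later as well. Except where the construction fixes the direction, the cause of a shift was not tested. No paired analysis was possible because the 2 input libraries gave no values here, so there was 1 group.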
